A study of Mus musculus with 6 samples.

Results

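The 6 conventional actin genes of the mouse (Acta1, Acta2, Actb, Actc1, Actg1 and Actg2) and 2 of their transcription regulators, Srf and Myocd, were followed through hearts of 10-day-old mice. The 8 genes were taken by symbol from a table of 46452 genes, and each matched exactly 1 row. The study holds 6 RNA sequencing libraries of whole heart, 3 labelled Nat10 flox/flox (loxP-flanked alleles of the RNA acetyltransferase gene Nat10) and 3 labelled Nat10-CKO (a conditional knockout of that gene), and addresses the part of NAT10 in heart development. Each library is a separate biological replicate per the labels. The Cre driver, the deleted exons and the genotype of the floxed mice at a Cre locus are not given in the sources used here. Levels are given as FPKM, a read count divided by gene length and by a scaling factor of the library, so that genes can be set side by side. They are per whole gene and do not show single exons.

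Actin monomers assemble into filaments. In heart muscle the thin filament of the sarcomere is built from the sarcomeric actins, cardiac alpha-actin (Actc1) and skeletal alpha-actin (Acta1), of which the skeletal form is prominent in the developing and in the overloaded rodent heart. Vascular smooth muscle uses Acta2, enteric smooth muscle uses Actg2, and Actb and Actg1 form the cytoplasmic filaments of nearly every cell. Serum response factor (SRF) binds the CArG box, a motif found before many actin and muscle genes. Myocardin (Myocd) is its coactivator in heart and smooth muscle, and the related coactivators MRTF-A and MRTF-B (Mrtfa, Mrtfb) are held back by free actin monomers, which couples the actin pool to SRF activity.

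The promoters are shown because the genes share SRF as a known regulator and yet differed in direction. RefSeq start sites (build GRCm38.p6) were given for 5 of the 8 genes. Actb, Actg2 and Myocd had no entry. Each line holds the 250 bases before the start, 5′ to 3′ on the gene's own strand (minus in all 5). Capitals mark CArG boxes (CC, then 6 bases that are A or T, then GG) and near matches in which 1 of the 6 central bases is G or C. The pattern reads the same on both strands.

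Acta1: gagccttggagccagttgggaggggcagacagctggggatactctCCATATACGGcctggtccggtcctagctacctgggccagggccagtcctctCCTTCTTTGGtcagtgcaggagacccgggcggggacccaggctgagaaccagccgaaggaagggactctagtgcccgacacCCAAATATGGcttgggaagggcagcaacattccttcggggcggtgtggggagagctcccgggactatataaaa
Actc1: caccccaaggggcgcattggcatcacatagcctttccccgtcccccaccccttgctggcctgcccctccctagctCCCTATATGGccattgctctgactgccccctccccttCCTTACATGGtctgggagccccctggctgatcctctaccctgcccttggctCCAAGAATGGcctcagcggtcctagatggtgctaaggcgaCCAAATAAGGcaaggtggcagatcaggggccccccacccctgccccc
Acta2: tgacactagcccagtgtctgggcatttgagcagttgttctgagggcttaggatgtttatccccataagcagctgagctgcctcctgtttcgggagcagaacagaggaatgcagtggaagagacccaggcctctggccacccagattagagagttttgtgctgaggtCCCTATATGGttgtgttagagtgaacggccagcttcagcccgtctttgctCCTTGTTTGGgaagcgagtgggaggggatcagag
Actg1: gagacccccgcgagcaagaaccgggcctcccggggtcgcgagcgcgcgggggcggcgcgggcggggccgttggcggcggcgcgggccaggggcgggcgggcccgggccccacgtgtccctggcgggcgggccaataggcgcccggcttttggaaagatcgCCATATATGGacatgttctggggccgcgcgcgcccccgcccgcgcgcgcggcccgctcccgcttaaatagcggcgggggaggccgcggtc
Srf: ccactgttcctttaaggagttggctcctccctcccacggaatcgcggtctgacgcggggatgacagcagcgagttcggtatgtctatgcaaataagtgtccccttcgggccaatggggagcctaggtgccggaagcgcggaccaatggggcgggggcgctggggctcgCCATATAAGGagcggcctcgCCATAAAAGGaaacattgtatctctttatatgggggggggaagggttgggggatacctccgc

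On GRCm38.p6 these windows lie at chr8:123894776-123895025 (Acta1), chr2:114052876-114053125 (Actc1), chr19:34255374-34255623 (Acta2), chr11:120348496-120348745 (Actg1) and chr17:46556163-46556412 (Srf). Acta1 held 1 full box, CCAAATATGG, 73 to 64 bases before the start, and 2 near matches. Actc1 held 1 full box, CCAAATAAGG, 47 to 38 bases before the start, and 3 near matches. Actg1 held the full box CCATATATGG and no near match. Srf itself held 2 full boxes, CCATATAAGG and CCATAAAAGG. The Acta2 window held no full box and 2 near matches, CCCTATATGG and CCTTGTTTGG. Of 32851 windows of this length in the RefSeq table, 1.47% held a full box and 0.0183% held 2 or more, while 8.59% held a full box or a near match. A match in these letters is a description and does not show that SRF was bound.

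The coding sequences of the 6 actins are alike, which bears on whether short reads can be told apart. Acta1 and Actc1 were identical at 976 of 1131 coding bases (86.3%), and their longest identical stretch was 29 bases. Actb and Actg1 were the closest pair, at 88.6% of coding bases. No stretch of 150 bases, the length of 1 read, was the same in transcripts of any pair of these actins (canonical GENCODE transcripts, GRCm39). Actg1 was the exception with regard to other genes. Of its windows of 150 bases 67.7% also occurred unchanged in transcripts of 5 other genes, 3 of which are pseudogene rows of the table at no more than 4.51 FPKM, so the level of Actg1 is uncertain. For Acta2 5.76% of windows also occurred in Stambpl1, which was at 2.25 FPKM or less.

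The targeted gene, Nat10, stood higher in every library labelled Nat10-CKO than in any Nat10 flox/flox library. The Nat10 flox/flox libraries held 3.75, 4.18 and 4.71 FPKM and those labelled Nat10-CKO 8.28, 8.66 and 10.2 FPKM (log2 fold change 0.94 ± 0.12 SE, limma adjusted p = 0.00142). The whole-gene level thus does not show a loss of Nat10 in the libraries labelled Nat10-CKO. As the deleted exons are not given and single exons are not shown, it cannot decide whether the knockout took place. Every direction below refers to the libraries as labelled. Libraries held from 31155521 to 38051266 reads in genes. Mitochondrial genes took 16.6% to 18.3% of these reads in Nat10 flox/flox and 7.56% to 9.26% in Nat10-CKO, and the part of this in the results was not tested. Nat10-CKO replicate 1 stood apart from the other Nat10-CKO libraries for several actins, and Nat10 flox/flox replicate 1 held 463 FPKM in 12 neuron and ganglion markers, against 8.42 to 36.0 in the other 5 libraries.

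Of the 8 genes, 7 reached a mean of 1 FPKM and were tested, and 4 of the 7 passed a limma adjusted p of 0.05, with 3 higher and 1 lower. In the whole comparison 40.5% of the 11996 tested genes passed, so the count of passing members by itself says little about actins. Acta1, Srf and Myocd rose and Acta2 fell in the libraries labelled Nat10-CKO. For Actc1, Actb and Actg1 the test was not passed, and Actg2 was too low to test. The groups did not overlap for 5 of the 7 tested members, where 55.9% of all tested genes showed no overlap. As these are whole hearts, fewer cells of a type and less RNA per cell cannot be told apart.

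**Figure D1:**
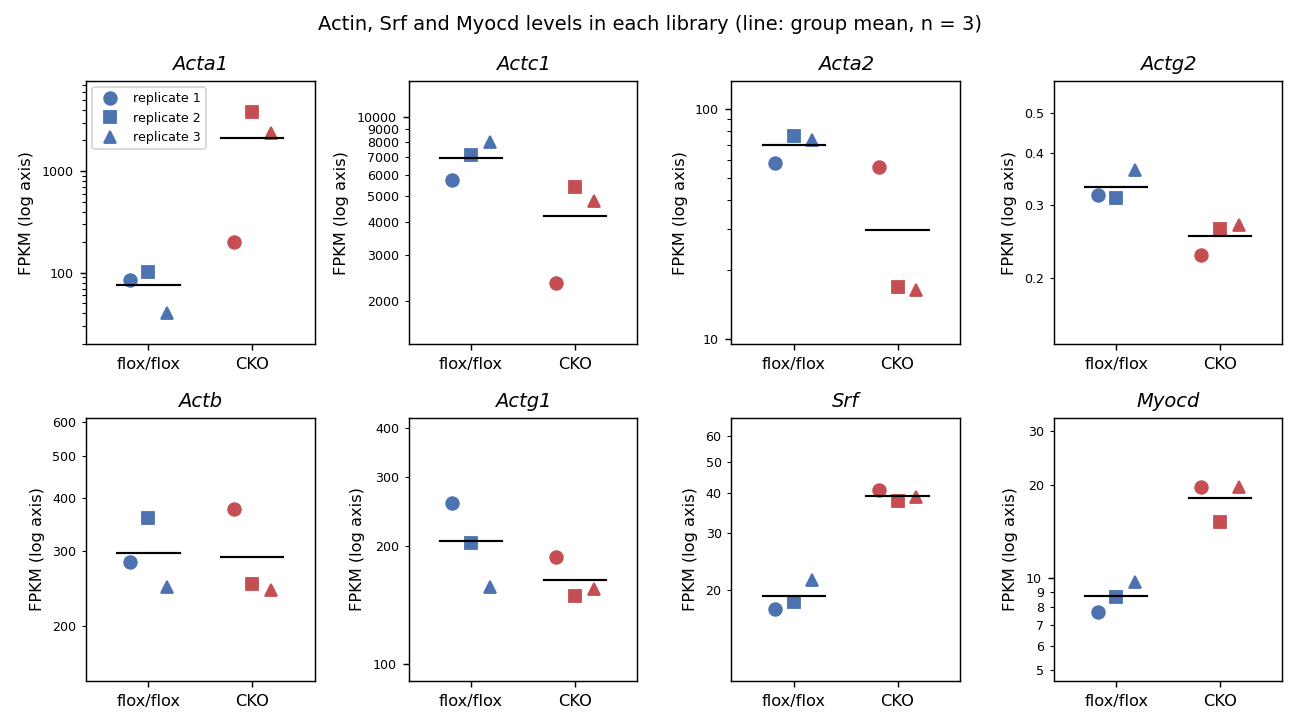
FPKM (log axis) of each of the 8 genes in the 3 Nat10 flox/flox (blue) and 3 Nat10-CKO (red) libraries, with the marker shape giving the replicate number and the line the group mean. Nat10-CKO replicate 1 sits far from the other Nat10-CKO libraries for Acta1 (201 against 2393 and 3819 FPKM) and Acta2 (55.7 against 16.4 and 16.8 FPKM), while the Srf points are close together (37.7 to 41.0 FPKM).

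Acta1 encodes skeletal alpha-actin (gene ID 11459, chromosome 8, 124618497 to 124621514, minus strand, GRCm39). Nat10 flox/flox hearts gave 85.6, 101 and 39.9 FPKM of Acta1, and hearts labelled Nat10-CKO gave 201, 3819 and 2393 FPKM. The groups did not overlap, but the lowest Nat10-CKO library was only 1.99 times the highest Nat10 flox/flox library, and the Nat10-CKO libraries differed among themselves by 19.0 times. The means were 75.5 ± 31.7 and 2138 ± 1823 FPKM, which is a 28.3-fold difference (± SD, n = 3 per group). The log2 fold change was 4.11 ± 1.07 (SE), with a 95% interval of 1.56 to 6.65 and a limma adjusted p of 0.0223. Without Nat10-CKO replicate 1 the log2 fold change was 5.41 (limma adjusted p = 0.000697), and the mean of replicates 2 and 3 was 41.2 times the Nat10 flox/flox mean. When any of the other 5 libraries was left out instead, Acta1 missed the threshold, with limma adjusted p values between 0.0521 and 0.0745, as it did with low genes not filtered (0.0685). Acta1 had 2230 to 5478 reads in each Nat10 flox/flox library and 11622, 208378 and 127758 in those labelled Nat10-CKO, so counting error is small beside the spread between hearts. By group mean it ranked 630th of all genes in the table in Nat10 flox/flox and 16th in Nat10-CKO.

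Actc1 encodes cardiac alpha-actin (gene ID 11464, chromosome 2, 113877763 to 113883356, minus strand) and was the most abundant actin in every library. Nat10 flox/flox hearts gave 5757, 7160 and 8005 FPKM of Actc1, and those labelled Nat10-CKO 2345, 5436 and 4801 FPKM. All 3 Nat10-CKO values lay below all 3 Nat10 flox/flox values, with Nat10-CKO replicate 1 the lowest by far. The means were 6974 ± 1136 and 4194 ± 1633 FPKM (± SD over 3 libraries per group). The log2 fold change of -0.81 ± 0.34 (SE) did not pass (limma adjusted p = 0.102), and its 95% interval ran from -1.63 to 0.0064. Without Nat10-CKO replicate 1 it was -0.44 (limma adjusted p = 0.0899).

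The balance between the sarcomeric actins can be read within a library and does not depend on library scaling. Acta1 made up 1.47%, 1.39% and 0.496% of the sarcomeric actin FPKM (Acta1 plus Actc1) in the Nat10 flox/flox libraries. In the libraries labelled Nat10-CKO its share was 7.88%, 41.3% and 33.3%. The groups did not overlap, and the mean went from 1.12 ± 0.539% to 27.5 ± 17.4% (SD, n = 3 per group; two-sided exact permutation p = 0.1, the smallest that 3 against 3 allows). Expressed as a ratio, the Nat10 flox/flox libraries held 67.2, 71.0 and 200.4 Actc1 transcripts per Acta1 transcript on the FPKM scale, and the Nat10-CKO libraries 11.7, 1.423 and 2.01. Nat10-CKO replicate 1, with the lowest Acta1 level of the Nat10-CKO libraries, had a higher Acta1 share than any Nat10 flox/flox library.

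The sum of both sarcomeric actins showed no such separation. It was 5842, 7261 and 8045 FPKM in Nat10 flox/flox and 2546, 9256 and 7194 FPKM in Nat10-CKO. In Nat10-CKO replicates 2 and 3 the sum lay within or above the Nat10 flox/flox range, and in replicate 1 it was below it. Sarcomeric actins took 90.7%, 91.9% and 94.4% of all actin FPKM in Nat10 flox/flox and 80.4%, 95.7% and 94.5% in Nat10-CKO (two-sided exact permutation p = 1.0). The 6 actins together summed to 7622 ± 1068 and 6816 ± 3326 FPKM (SD, n = 3 per group; two-sided exact permutation p = 0.8). The sign of both differences turned without Nat10-CKO replicate 1, to 2.79 percentage points and 1019 FPKM higher in Nat10-CKO.

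**Figure D2:**
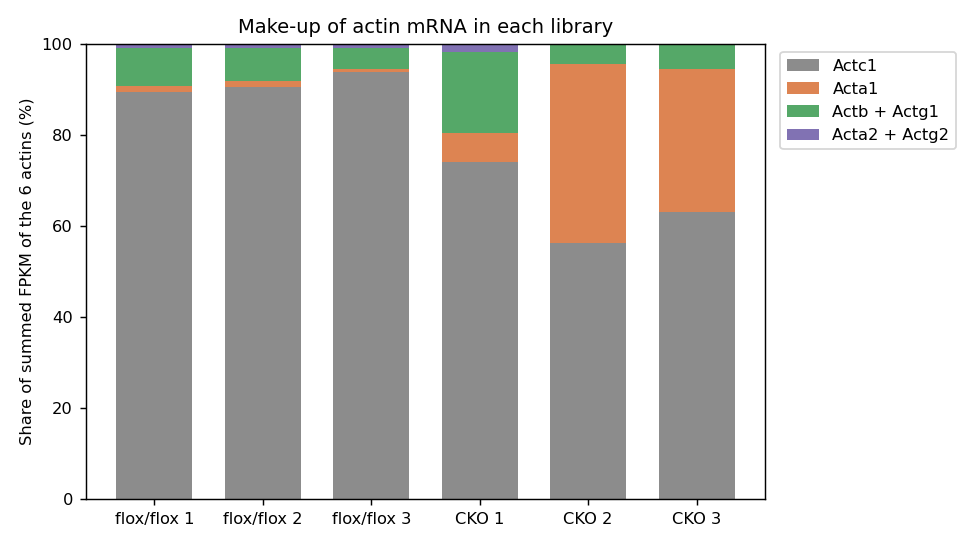
Stacked bars give, for each library, the percent of the summed FPKM of the 6 actins that came from Actc1, Acta1, the cytoplasmic actins (Actb plus Actg1) and the smooth muscle actins (Acta2 plus Actg2). The Acta1 band is barely visible in the 3 Nat10 flox/flox bars and large in Nat10-CKO replicates 2 and 3, and the cytoplasmic band is largest in Nat10-CKO replicate 1 (17.8%).

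Acta2 encodes the alpha-actin of vascular smooth muscle (gene ID 11475, chromosome 19, 34217736 to 34232985, minus strand), which is also made by myofibroblasts and by embryonic heart muscle. Acta2 stood at 58.4, 76.6 and 73.4 FPKM in Nat10 flox/flox hearts, against 55.7, 16.8 and 16.4 FPKM in hearts labelled Nat10-CKO. Replicate 1 of Nat10-CKO was just under the lowest Nat10 flox/flox library, whereas replicates 2 and 3 were far below it. The means were 69.5 ± 9.69 and 29.6 ± 22.6 FPKM (± SD over 3 libraries per group), so that Acta2 fell 2.35-fold. On the log2 scale this was -1.43 ± 0.45 (SE), with a 95% interval of -2.51 to -0.35 and a limma adjusted p of 0.0437. The fall was 4.19-fold, with a log2 fold change of -1.99 and a limma adjusted p of 0.000556, without Nat10-CKO replicate 1. Acta2 missed the threshold when any of the other 5 libraries was left out (limma adjusted p between 0.076 and 0.13) and when protein-coding genes were brought to the same total (0.0762) or low genes were not filtered (0.113).

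Markers of the cells that carry Acta2 were uneven. Of 11 smooth muscle markers 6 were tested, and 1 rose and 2 fell (24.4% of all tested genes rose and 16.0% fell). Smtn, a smooth muscle cytoskeletal protein, fell from 48.7 ± 3.52 to 15.5 ± 4.37 FPKM and Mylk, the myosin light chain kinase, from 3.68 ± 0.481 to 2.41 ± 0.406 FPKM, while Cnn1, calponin, rose from 0.328 ± 0.109 to 3.20 ± 2.62 FPKM (± SD over 3 libraries per group). Cnn1 was under 1 FPKM in every Nat10 flox/flox library, so only its Nat10-CKO values brought it into the test. With any 1 Nat10 flox/flox library left out, none of the list rose and 1 fell, and 1 fell without Nat10-CKO replicate 2. Without Nat10-CKO replicate 1 or 3, 2 rose and 2 fell. The smooth muscle myosin gene Myh11 did not pass, and its values were 4.89, 5.70 and 5.06 FPKM in Nat10 flox/flox and 3.14, 3.30 and 5.02 FPKM in Nat10-CKO. Tagln was listed at only 0.0171 to 0.0726 FPKM, and 38.6% of its span overlaps Pcsk7 on the opposite strand in the table, so its level is uncertain. Of the other untested markers, Itga8, Kcnmb1 and Ntrk3 were lower in every Nat10-CKO library than in any Nat10 flox/flox library, and Lmod1 was higher. Their means over all libraries were under 1 FPKM, so these differences were not tested, and 55.9% of all tested genes showed no overlap. The summed level of the smooth muscle list ranged from 338 to 413 FPKM in Nat10 flox/flox and from 275 to 536 FPKM in Nat10-CKO. Most of this sum came from Hspb6, with Smtn next, so the sum mainly follows 1 gene. Hspb6 was at 271, 299 and 340 FPKM in Nat10 flox/flox and 239, 484 and 432 FPKM in Nat10-CKO, and it did not pass.

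Of 8 pericyte markers 6 fell and none rose (16.0% of all tested genes fell), and 1 rose without Nat10-CKO replicate 3. Their summed level was 257 to 303 FPKM in Nat10 flox/flox and 142 to 154 FPKM in Nat10-CKO. The most abundant, Rgs5, went from 134 ± 17.4 to 69.8 ± 7.40 FPKM and Abcc9, a channel subunit, from 48.7 ± 4.78 to 18.7 ± 5.59 FPKM (± SD over 3 libraries per group). Nat10-CKO replicate 1 had the lowest pericyte sum of all libraries, although its Acta2 was near the Nat10 flox/flox range. Of 11 tested fibroblast and myofibroblast markers 1 rose (Ltbp2) and 1 fell (Fap), where 24.4% of all tested genes rose and 16.0% fell. Ltbp2 was under 1 FPKM in every Nat10 flox/flox library, so only its Nat10-CKO values brought it into the test. The sums of the list were 485 to 512 FPKM in Nat10 flox/flox against 431 to 861 FPKM in Nat10-CKO, the highest in Nat10-CKO replicate 1. Without Nat10-CKO replicate 3 the number that rose was 4, without Nat10-CKO replicate 1 it was 2 and with protein-coding genes rescaled 3, and 2 fell without Nat10-CKO replicate 2. Among these markers Dcn and Col3a1 were the most abundant. The part of these cell types in the Acta2 result was not tested.

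Actg2 encodes enteric smooth muscle actin (gene ID 11468, chromosome 6, 83489891 to 83513233, minus strand). It was at 0.318, 0.312 and 0.364 FPKM in Nat10 flox/flox and 0.227, 0.263 and 0.269 FPKM in Nat10-CKO, from 11 to 17 reads per library. The groups did not overlap, but the gene lay under the minimum mean of 1 FPKM. Tested with no such minimum, it did not pass (limma adjusted p = 0.283). A difference of this size cannot be told from counting error at this depth. The table also holds 12 rows described as actin-like genes, actin-related T genes or further actins (Actr2 and Actr3, of the Arp2/3 list, are not among them). Of these only Actl6a, a nuclear actin-like subunit of chromatin remodellers, reached a mean of 1 FPKM, and 6 were at 0 in all libraries.

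Actb encodes beta-actin (gene ID 11461, chromosome 5, 142888870 to 142892509, minus strand), often used as a reference gene. It was at 283, 359 and 247 FPKM in Nat10 flox/flox and at 376, 251 and 243 FPKM in Nat10-CKO. The groups overlapped throughout. The log2 fold change was -0.04 ± 0.22 (SE, limma adjusted p = 0.892), and it turned to 0.11 with protein-coding genes rescaled and to between 0.05 and 0.10 without Nat10 flox/flox replicate 2, Nat10-CKO replicate 2 or Nat10-CKO replicate 3. Its 95% interval spans ratios of 0.67 to 1.41 on the FPKM + 1 scale, so changes within those bounds are not excluded with 3 libraries per group. The highest Nat10-CKO value was again that of replicate 1.

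Actg1 encodes gamma-actin (gene ID 11465, chromosome 11, 120236513 to 120239321, minus strand). It was at 258, 204 and 157 FPKM in Nat10 flox/flox and at 187, 149 and 155 FPKM in Nat10-CKO. The groups overlapped, and the log2 fold change of -0.31 ± 0.20 (SE) did not pass (limma adjusted p = 0.268), with a 95% interval of -0.79 to 0.18. Leaving out Nat10 flox/flox replicate 1 gave -0.13 for Actg1, leaving out replicate 3 of the same group gave -0.49, and neither fit passed. The ratio of Actb to Actg1 was 1.10, 1.76 and 1.57 in Nat10 flox/flox and 2.01, 1.68 and 1.56 in Nat10-CKO. Cytoplasmic actins together took 8.40%, 7.12% and 4.74% of all actin FPKM in Nat10 flox/flox and 17.8%, 4.14% and 5.24% in Nat10-CKO, so replicate 1 stood apart in this share too. Their summed level was 541, 563 and 404 FPKM in Nat10 flox/flox and 563, 400 and 399 FPKM in Nat10-CKO. By level, Nat10-CKO replicate 1 was thus close to the highest Nat10 flox/flox library. The ratio, the shares and the sums carry the uncertainty in the level of Actg1 from its shared sequence.

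Markers of the cells rich in cytoplasmic actin moved in different ways. Of 10 endothelial markers 9 fell and none rose (16.0% of all tested genes fell), with sums of 397 to 466 FPKM in Nat10 flox/flox and 247 to 251 FPKM in Nat10-CKO. The number that fell was 6 without Nat10 flox/flox replicate 2 or 3 or Nat10-CKO replicate 2 or 3, and 6 with protein-coding genes rescaled. Cdh5, the endothelial cadherin, went from 94.999 ± 8.04 to 44.6 ± 6.99 FPKM (± SD over 3 libraries per group). Of 10 macrophage markers none passed the limma test (1 had an unadjusted p under 0.05), where 40.5% of all tested genes passed. Their sums were 702 to 1048 FPKM in Nat10 flox/flox against 881 to 1095 FPKM in Nat10-CKO, with Lyz2 and C1qa the most abundant. Without Nat10 flox/flox replicate 2, 1 rose, and without Nat10-CKO replicate 1, 1 rose and 1 fell. Their part in the Actb and Actg1 values was not tested.

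Srf encodes serum response factor (gene ID 20807, chromosome 17, 46857764 to 46869194, minus strand). Srf stood at 17.5, 18.4 and 21.4 FPKM in Nat10 flox/flox hearts, against 41.0, 37.7 and 38.9 FPKM in hearts labelled Nat10-CKO. The groups were well apart, and the Nat10-CKO libraries, replicate 1 included, were within 1.09 times of each other. The log2 fold change was 1.0035 ± 0.11 (SE), with a 95% interval of 0.74 to 1.27 and a limma adjusted p of 0.000972. It passed in all 17 alternatives tried, with log2 fold changes from 0.76 to 1.15.

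Myocd encodes myocardin (gene ID 214384, chromosome 11, 65064434 to 65160815, minus strand). Myocd stood at 7.73, 8.64 and 9.69 FPKM in Nat10 flox/flox hearts, against 19.7, 15.1 and 19.8 FPKM in hearts labelled Nat10-CKO. The groups did not overlap, and the lowest Nat10-CKO value was 1.56 times the highest Nat10 flox/flox value. The log2 fold change was 0.98 ± 0.14 (SE, limma adjusted p = 0.00237), and it passed in all 17 alternatives with values from 0.77 to 1.13. The ratio of Srf to Myocd was 2.20 ± 0.0653 in Nat10 flox/flox and 2.18 ± 0.277 in Nat10-CKO (SD, n = 3 per group), with overlapping ranges. Nat10-CKO replicate 1, far from the other Nat10-CKO libraries for Acta1 and Acta2, held 1.07 times their mean for Srf and 1.13 times for Myocd. Myocd overlaps the antisense gene Gm30586 over 65 bases, and Actb overlaps the antisense gene Gm38733 over 401 bases. The libraries keep strand per the labels, but the sources used here do not give the strand setting of the counting.

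**Figure D3:**
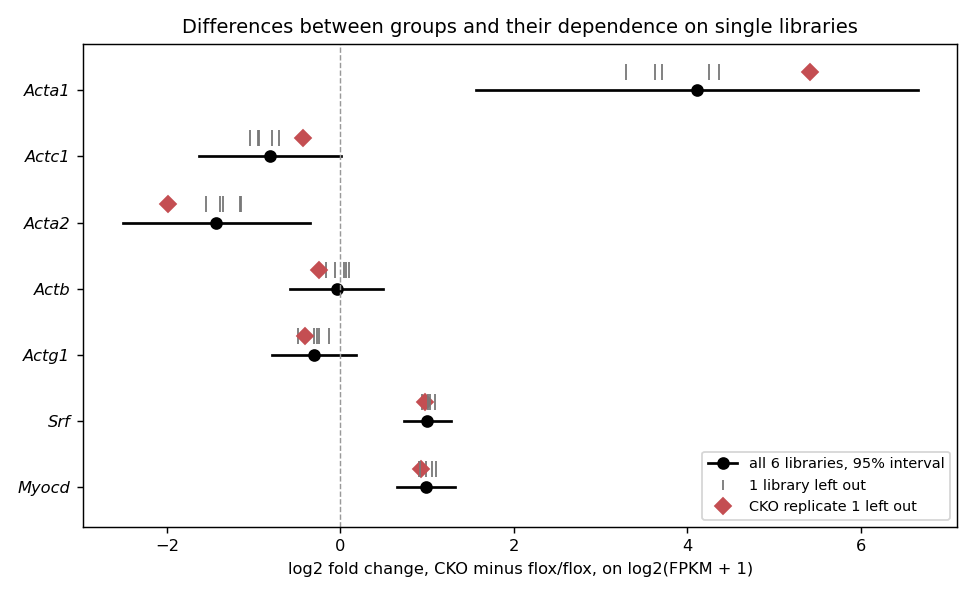
Log2 fold change (Nat10-CKO minus Nat10 flox/flox, on log2(FPKM + 1)) of the 7 tested genes, with black points and lines for all 6 libraries and their 95% intervals from limma, grey ticks for fits with 1 library left out and red diamonds for the fit without Nat10-CKO replicate 1. The diamonds of Acta1 (5.41) and Acta2 (-1.99) lie far outside the other ticks, while those of Srf and Myocd fall among them.

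By level, the order in Nat10 flox/flox was Actc1, Actb, Actg1, Acta1, Acta2, Srf, Myocd and Actg2. The ranges of Actb and Actg1 over libraries overlapped, although Actb was above Actg1 within each of the 6 libraries. As the level of Actg1 is uncertain because of its shared sequence, so is this order. The ranges of Acta1 and Acta2 overlapped too, and Acta1 was the lower of them in Nat10 flox/flox replicate 3. In Nat10-CKO the order was Actc1, Acta1, Actb, Actg1, Srf, Acta2, Myocd and Actg2. There the range of Acta1 (201 to 3819 FPKM) overlapped those of Actc1 and Actb, and the range of Acta2 (16.4 to 55.7 FPKM) overlapped those of Srf and Myocd. Spread between replicates also differed by gene. The coefficient of variation in Nat10-CKO was 85.3% for Acta1 and 76.2% for Acta2, and 4.25% for Srf.

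Genes whose pattern was most like a member were ranked by Pearson r of log2(FPKM + 1) over the 6 libraries among 11041 other protein-coding tested genes. The 6 libraries form 2 groups and share their scaling, so r is only a description of them. For Acta1 they were Mthfd2 (r = 0.996), Glrx, Ero1a, Slc35c2 and Bloc1s5. Mthfd2, a mitochondrial folate enzyme, was at 3.41, 3.52 and 1.72 FPKM in Nat10 flox/flox and 5.33, 35.4 and 20.9 FPKM in Nat10-CKO, low in Nat10-CKO replicate 1 as Acta1 was. For Acta2 they were Asf1b (r = 0.999), a histone chaperone at 2.09, 2.57 and 2.43 FPKM against 2.05, 0.630 and 0.570 FPKM, then Sash1, Mmd, Armc10 and Cpm. For Srf they were Pbxip1, Prep, Jrk, Por and Strap, all with r above that of any gene listed for Acta1.

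Of 29 tested SRF cofactors and regulators 14 rose and 3 fell, where 24.4% of all tested genes rose and 16.0% fell, and their median log2 fold change was 0.23 against 0.03 over all tested genes. Abra, an actin-binding protein of striated muscle that activates SRF, went from 7.37 ± 1.43 to 90.2 ± 34.3 FPKM (12.2-fold). Nkx2-5, a cardiac homeodomain factor that cooperates with SRF, went from 41.9 ± 3.05 to 165.5 ± 12.3 FPKM, and Filip1l from 7.25 ± 1.10 to 39.2 ± 7.85 FPKM. Hopx, a homeodomain protein that opposes SRF, fell from 93.6 ± 15.9 to 17.4 ± 2.25 FPKM (± SD over 3 libraries per group). These 4 genes were picked for the smallest adjusted p of the list, which favours groups that do not overlap, and none of the 4 overlapped. Over the whole list 22 of 29 genes showed no overlap, where 55.9% of all tested genes showed none. The other members that fell were Elk3, a ternary complex factor, and Fhl2, a LIM protein. With quantile normalization 13 rose and 5 fell. The MRTF genes did not pass, with log2 fold changes of 0.22 for Mrtfa and -0.14 for Mrtfb, nor did Rhoa (-0.05), which signals to them.

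Known SRF targets other than actins went in both directions. Of 32 tested targets of the cytoskeleton and contractile apparatus 14 rose and 5 fell (24.4% of all tested genes rose and 16.0% fell), with a median log2 fold change of 0.32. The 14 include Cnn1, also in the smooth muscle list, which only its Nat10-CKO values brought into the test. Nppa, the atrial natriuretic peptide, was at 119 to 243 FPKM in Nat10 flox/flox and 8008 to 13522 FPKM in Nat10-CKO. Ankrd1, a stretch-responsive ankyrin repeat protein, went from 313 ± 67.7 to 2265 ± 514 FPKM, Ccn2, a matricellular protein, from 30.1 ± 13.5 to 419 ± 211 FPKM and Tln1, which links integrins to actin, from 35.7 ± 3.95 to 85.1 ± 6.69 FPKM (± SD over 3 libraries per group). The members that fell were Myl9, Atp2a2, Tpm4, Tagln2 and Ckm (the 5 named because they were all that fell). Leaving out Nat10 flox/flox replicate 2 or 3 reduced the lower members to 1 and leaving out replicate 1 to 3. Leaving out Nat10-CKO replicate 2 reduced them to 3, and leaving out Nat10-CKO replicate 1 raised them to 8. The number that rose was 10 with any 1 Nat10 flox/flox library left out. It was 12, 11 and 16 without Nat10-CKO replicate 1, 2 and 3, in that order. With protein-coding genes rescaled 15 rose and 2 fell, and with quantile normalization 11 rose and 8 fell.

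Immediate early SRF targets were few enough to name. Of 7 tested, 3 rose and none fell (24.4% of all tested genes rose and 16.0% fell), so the share called is near that of all genes (40.5%). They were Nr4a1, an orphan nuclear receptor, from 1.86 ± 0.736 to 8.27 ± 0.809 FPKM, Egr1, a zinc finger factor, from 6.10 ± 1.80 to 12.05 ± 1.75 FPKM, and Junb, an AP-1 subunit, from 13.3 ± 2.55 to 23.0 ± 4.95 FPKM (± SD over 3 libraries per group). Fos itself did not pass, with a log2 fold change of 0.85. Leaving out a single library moved the number that rose between 2 and 4, with 1 member falling without Nat10 flox/flox replicate 2, and 2 rose with quantile normalization.

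**Figure D4:**
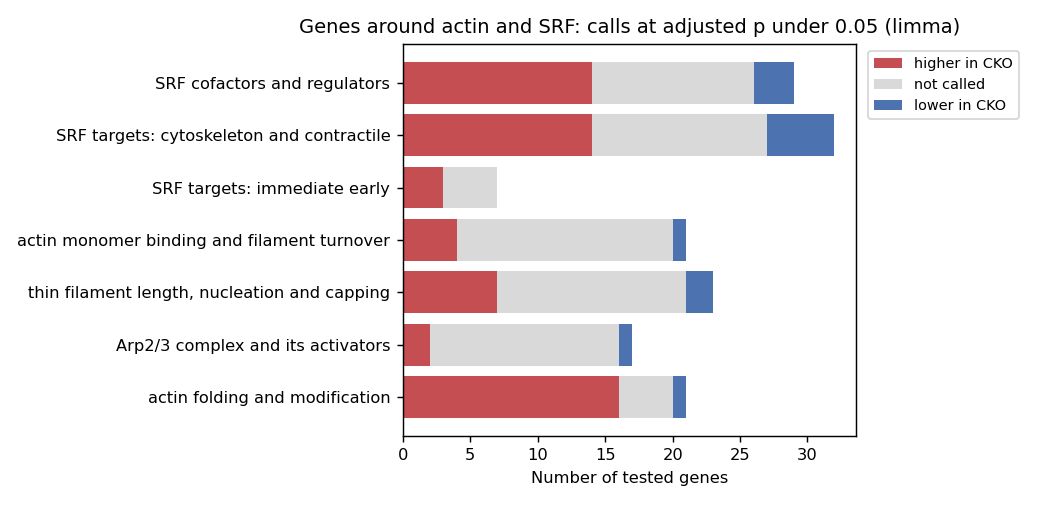
Bars give, for 7 gene lists around actin and SRF, the number of tested genes that were higher (red), lower (blue) or not called (grey) in Nat10-CKO at a limma adjusted p under 0.05. The folding and modification list has the largest red share (16 of 21), and most members of the Arp2/3 list (14 of 17) are grey.

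Genes that fold and modify actin rose in 16 of 21 cases, with 1 lower (24.4% of all tested genes rose and 16.0% fell) and a median log2 fold change of 0.62. They include subunits of the chaperonin CCT, which folds newly made actin and tubulin. Cct3 went from 52.2 ± 2.30 to 125.6 ± 19.6 FPKM and Cct6a from 44.5 ± 2.77 to 87.95 ± 6.12 FPKM. Mical2, an enzyme that oxidises actin filaments and is known to raise SRF activity through MRTF, went from 11.9 ± 1.417 to 35.3 ± 6.59 FPKM, and its relative Mical3 from 6.36 ± 0.695 to 13.3 ± 0.789 FPKM (± SD over 3 libraries per group). With 1 library left out 11 to 16 rose, 11 without Nat10 flox/flox replicate 2 or Nat10-CKO replicate 3, and 11 rose with quantile normalization. The subunit that fell was Pfdn5 of prefoldin, with a log2 fold change of -0.40. It no longer passed without Nat10 flox/flox replicate 2, without Nat10-CKO replicate 2 or with protein-coding genes rescaled.

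Among genes that set thin filament length, nucleate or cap filaments, 7 of 23 rose and 2 fell, near the shares among all tested genes (24.4% and 16.0%), with a median log2 fold change of 0.28. The risers were led by Xirp2 and Xirp1, actin-binding repeat proteins of the intercalated disc. Xirp2 was at 16.5, 19.5 and 22.2 FPKM against 905, 1060 and 459 FPKM, and Xirp1 went from 46.4 ± 4.67 to 172 ± 7.61 FPKM. Nrap, a scaffold of new myofibrils, went from 84.6 ± 18.7 to 347 ± 46.6 FPKM, and the formin Diaph1, a nucleator of straight filaments, from 8.70 ± 1.08 to 22.3 ± 4.30 FPKM (± SD over 3 libraries per group). The lower members, Nebl and Tmod3, no longer passed when any 1 Nat10 flox/flox library, or Nat10-CKO replicate 2, was left out, and 1 member of the list fell without Nat10-CKO replicate 3.

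Of 21 tested genes of monomer binding and filament turnover 4 rose and 1 fell, where 24.4% of all tested genes rose and 16.0% fell. Their median log2 fold change was -0.10 against 0.03 over all tested genes, and these differences were not tested. Cap2, a muscle cyclase-associated protein, went from 36.6 ± 5.06 to 55.035 ± 1.12 FPKM, Cfl2, muscle cofilin, from 64.5 ± 6.76 to 90.8 ± 6.66 FPKM and Wdr1, a cofilin partner, from 30.5 ± 2.36 to 44.5 ± 6.07 FPKM. Tmsb4x, thymosin beta 4, which binds actin monomers, fell from 512 ± 70.7 to 296 ± 68.1 FPKM (± SD over 3 libraries per group). The direction of this list depends on scaling, as 0 rose and 5 fell with quantile normalization and 6 rose and 1 fell with protein-coding genes rescaled. Without Nat10-CKO replicate 2 the number that rose was 1, and it was 2 with any 1 Nat10 flox/flox library left out. Without Nat10 flox/flox replicate 2 none fell, and 2 fell without Nat10 flox/flox replicate 3 or Nat10-CKO replicate 1.

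The Arp2/3 complex, which nucleates branched filaments, and its activators gave 3 calls among 17 genes. Nckap1 rose from 27.9 ± 1.30 to 42.6 ± 3.42 FPKM and Arpc2 from 94.7 ± 9.23 to 148 ± 19.96 FPKM, and Arpc1a fell from 35.3 ± 6.51 to 21.4 ± 1.416 FPKM (± SD over 3 libraries per group). Without Nat10 flox/flox replicate 3, 1 rose and 2 fell, and with protein-coding genes rescaled 3 rose and none fell. The share called was below the 40.5% of all tested genes, and this difference was not tested.

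Heart and skeletal muscle markers were set beside the sarcomeric actins. The 10 cardiomyocyte markers summed to 13216 to 14100 FPKM in Nat10 flox/flox and 13179 to 16806 FPKM in Nat10-CKO, with Myl3 and Tnnt2 the most abundant. Csrp3 and Myoz2 rose, Tcap fell and the other 7 did not pass (24.4% of all tested genes rose and 16.0% fell). With quantile normalization 4 rose and 4 fell. Without Nat10-CKO replicate 1, 3 rose and 2 fell, without Nat10-CKO replicate 3, 1 rose and 3 fell, and without any 1 of the other 4 libraries 1 rose and 1 fell. The 14 skeletal muscle markers summed to 5.69 to 9.96 FPKM in Nat10 flox/flox and 44.6 to 52.3 FPKM in Nat10-CKO. Nearly all of the latter came from Mybpc2, a myosin-binding protein, at 46.7, 48.5 and 39.9 FPKM, with Tnni2 next at 2.21, 1.43 and 2.44 FPKM. The defining fast myosin genes Myh1, Myh2 and Myh4 were at 0.0773 FPKM or less in every library, and 12 of the 14 markers had a mean under 1 FPKM. Mybpc2 was as high in Nat10-CKO replicate 1 as in the others, unlike Acta1. Of 5 tested neuron and ganglion markers none passed the limma test (none had an unadjusted p under 0.05), where 40.5% of all tested genes passed. Gap43, Prph and Snap25 were at 0.301 FPKM or less in the other 5 libraries, so only Nat10 flox/flox replicate 1 brought them into the test. Such a single high library widens the spread within its group, so this count cannot be set against that share. The smallest limma adjusted p was that of Gap43 (0.271).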

How the data were processed

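Poly-T beads were used to purify messenger RNA from heart, and pairs of 150 bases were read from strand-keeping libraries, per the labels' protocols. HISAT2 2.2.1 (build GRCm39) and featureCounts 2.0.6 did the alignment and counting, per the series' design text, and DESeq2 1.42.0 and CASAVA are in the submitters' processing notes. The deposited values are FPKM of the authors. The strand setting, the treatment of reads with several matches and the definition of gene length are not given in the sources used here. FPKM times the deposited gene length gave whole reads for 100% of values (tolerance 0.01 read), and each library's divisor equalled its median-of-ratios size factor times a constant.

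The main test was limma 3.58.1 under R 4.3.3 (linear fit, moderated with a mean trend, two-sided) of log2(FPKM + 1). It covered all 11996 genes whose mean reached 1 FPKM, and p was adjusted by Benjamini-Hochberg over all of them (threshold 0.05). Because the unit is FPKM, reads recovered from it were tested only as an alternative, with voom. Fold changes on this scale understate changes of low genes, and plain folds are ratios of mean FPKM. Shares were tested by exact permutation over libraries. The labels call the replicates independent, and p-values measure the spread between these libraries. The members and lists were chosen with earlier results of these data known. Genes named were the 8 members, Nat10, up to 4 members of each list with the smallest adjusted p (1 where none passed), the 5 most alike in pattern, and the 2 most abundant markers of lists set beside a result. Others (Mrtfa, Mrtfb, Rhoa, Fos, Elk3, Fhl2, Myh11, Tagln, Itga8, Kcnmb1, Ntrk3, Lmod1, Myh1, Myh2, Myh4, Nebl, Tmod3, Pfdn5, Actl6a and the falling targets) were chosen after their values were seen. Coding sequences were aligned with Biopython 1.88 and figures drawn with matplotlib 3.10.9.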

Additional observations from a re-analysis of the deposited data

How the results depend on the processing

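Of 11996 genes 4856 passed, 2932 higher and 1924 lower (60.4% higher), and 3333 to 6939 passed under the 17 alternatives. Rescaling protein-coding genes to a common total gave 3643 higher and 1402 lower (72.2% higher) and moved the median log2 fold change from 0.03 to 0.16. Acta1 kept its direction under all 17 alternatives (log2 fold change 3.29 to 5.41 with 1 library left out, missing the threshold for 5 of the 6) and missed the threshold with no filter on low values (4.11, limma adjusted p = 0.0685, range over alternatives 0.000297 to 0.0745). Acta2 ranged from -1.99 to -1.14 with 1 library left out and missed the threshold with no filter (-1.43, limma adjusted p = 0.113), with protein-coding genes rescaled (-1.28) and with the replicate block (-1.43, limma adjusted p = 0.0664). With no filter 27977 genes were tested. Actc1 passed only with the replicate block (-0.81, limma adjusted p = 0.0465), and apart from Actc1 and Acta2 the block changed no member's call. The replicate block gave 4390 passing genes. Deviations of same-numbered libraries from their group means correlated at 0.0649, 0.0373 and 0.105, and not every library correlated best with its own number, so the numbers were not taken as pairs. Actb turned to 0.11 with protein-coding genes rescaled and ranged from -0.24 to 0.10 with 1 library left out. Actg1, Srf and Myocd kept direction and call under all 17 alternatives, and the Acta1 share kept its direction under all 8. The difference in the sarcomeric share of all actin ranged from -4.84 to 2.79 percentage points with 1 library left out and was 1.97 without both libraries numbered 1 (chosen after seeing the data). For summed actin FPKM these were -2234.5 to 1019 and 429.5. The cause of these turns was not tested. Depth limits Actg2, and 3 libraries per group limit the tested genes.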
